A study of Mus musculus with 16 samples.

Results

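The ubiquitin-specific proteases (USP) and the ubiquitin-conjugating enzymes (UBE2) were examined in mouse embryonic stem cell RNA measured on Affymetrix arrays. Members were all probe sets whose only gene symbol in the platform annotation begins with Usp and a number, or with Ube2 and a letter. This gave 209 probe sets of 84 genes among the 45101 probe sets of the array. The USP symbols covered 128 probe sets of 51 genes and the UBE2 symbols 81 probe sets of 33 genes, and the families are described apart. Another 8 probe sets carry a USP or UBE2 symbol together with another symbol, 4 of them for Ube2l3, and were left out. Ube2l3 is therefore not analysed here.

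Ubiquitin is attached to proteins by a cascade in which an activating enzyme passes it to a conjugating enzyme (an E2, the UBE2 family), which works with a ligase that selects the substrate. The attached chains send proteins to the proteasome, steer membrane traffic or act as signals in DNA repair and chromatin. The ubiquitin-specific proteases are the largest family of enzymes that remove ubiquitin again. In embryonic stem cells these enzymes act in the fast cell cycle, in turnover of pluripotency factors and in histone ubiquitylation.

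All 16 arrays were hybridised with material from 1 preparation of total RNA of the mouse embryonic stem cell line E14tg2a, purified with an RNeasy kit. For the 8 amplified arrays, each array received its own PCR amplification (the V1V3 method of the labels) of cDNA made from 10 pg of RNA, an amount like that of a single cell. For the 8 nonamplified arrays, 5 µg of undiluted RNA was labelled by the one-cycle protocol. The comparison therefore asks how amplification from a single-cell amount of RNA changes what is read for these genes. The arrays of a group are technical replicates, so p-values measure the spread of the method and not of cells or cultures. Cell composition and RNA per cell were shared by design.

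The RNA carried embryonic stem cell markers: on the nonamplified arrays the mean intensity was 4159 for Pou5f1, 4050 for Sox2 and 1776 for Nanog. On the amplified arrays it was 3155, 5047 and 276. Summed over 18 probe sets of 10 embryonic stem cell genes, intensity lay between 33690 and 35260 on nonamplified and between 42750 and 47240 on amplified arrays. The summed intensity of 14 probe sets for 7 fibroblast genes lay between 407 and 517 on nonamplified and between 318 and 474 on amplified arrays. That of 9 probe sets for 4 blood cell genes lay between 1025 and 1099 on nonamplified arrays and between 3230 and 5843 on amplified arrays. Of these genes, Ptprc and Cd52 had no probe set above the filter on low intensity given below. Laptm5 had 5 and Fcer1g had 1. The part of the blood cell gene signal in the results for the ubiquitin enzymes was not tested. The median intensity of all probe sets was 51.7 ± 1.44 (SD, n = 8) on nonamplified and 35.0 ± 1.07 on amplified arrays. The lowest value in the files, 1, was listed for 2.55% of probe sets on the average nonamplified array and for 7.53% on the average amplified array.

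Of the members, 94 USP probe sets of 44 genes and 63 UBE2 probe sets of 29 genes passed the filter on low intensity, a mean over the 16 arrays above 38.52. Just below the filter lay single probe sets of Usp27x at 36.48, Usp44 at 36.62 and Usp20 at 37.94. Just above it lay probe sets of Usp53 at 39.65, Usp25 at 39.98 and Usp6nl at 40.39. Differences are given as log2(intensity + 16), amplified minus nonamplified, a scale that understates the change of dim probe sets. A probe set is called when its adjusted p in limma (moderated test across all probe sets, Benjamini-Hochberg) is below 0.05. Some probe sets passed the filter only through the group in which they read higher. Their amplified mean was at or under it for 15 USP probe sets, 13 of them called lower, and 6 UBE2 probe sets, 5 of them called lower. The nonamplified mean was at or under it for 5 USP probe sets, 4 of them called higher, and 3 UBE2 probe sets, 2 of them called higher. Such probe sets had to differ to be tested, so where they are named their values are a description and no p is given. The files give no detection calls, so a low intensity does not show absence of a transcript.

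Among USP probe sets, 53 of 94 (56.4%) were called, against 58.0% of all 27022 probe sets tested. Of these, 17 (18.1%) were higher after amplification, against 24.7% of all, and 36 (38.3%) were lower, against 33.4% of all. At least 2-fold differences were called for 39 (41.5%), against 36.4% of all, 8 of them higher and 31 lower. The median difference was -0.62 for the USP probe sets and -0.19 for all probe sets tested. With both group means above the filter, 13 of 74 USP probe sets (17.6%) were called higher and 23 (31.1%) lower, against 23.0% and 25.2% of 20148 on the whole array. The share called is close to that of the whole array, so the number of calls is no property of the family.

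Among UBE2 probe sets, 32 of 63 (50.8%) were called, against the same 58.0%. Of these, 17 (27.0%) were higher and 15 (23.8%) were lower after amplification. At least 2-fold differences were called for 22 (34.9%), 9 higher and 13 lower. The median difference was -0.17, close to that of all probe sets. With both group means above the filter, 15 of 54 (27.8%) were called higher and 10 (18.5%) lower. No test was made of whether the 2 families differ from each other or from the rest of the array.

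These directions depend on how the arrays are scaled to each other, which is not given in the sources used here. The median of all probe sets was -0.19 with the deposited values, -0.063 after quantile normalization, 0.26 with each array centred on its median, 0.33 when scaled on the probe sets brighter than the median and -0.54 when scaled on the hybridization controls. The USP median differed from the median of all probe sets by -0.43, -0.32, -0.45, -0.45 and -0.40 in the same order. The UBE2 median differed from it by 0.020, -0.19, 0.037, 0.050 and 0.030. The called USP probe sets were 32.1%, 34.0%, 47.2%, 50.0% and 14.5% higher ones in that order, and the called UBE2 probe sets 53.1%, 41.9%, 73.0%, 73.0% and 30.0%. For all called probe sets the shares were 42.5%, 49.2%, 63.7%, 66.2% and 24.9%. Of the 36 USP probe sets called lower, 28 were called lower under every one of these scalings, and of the 17 called higher, 7 were. For UBE2 these numbers were 10 of 15 and 8 of 17.

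**Figure D1:**
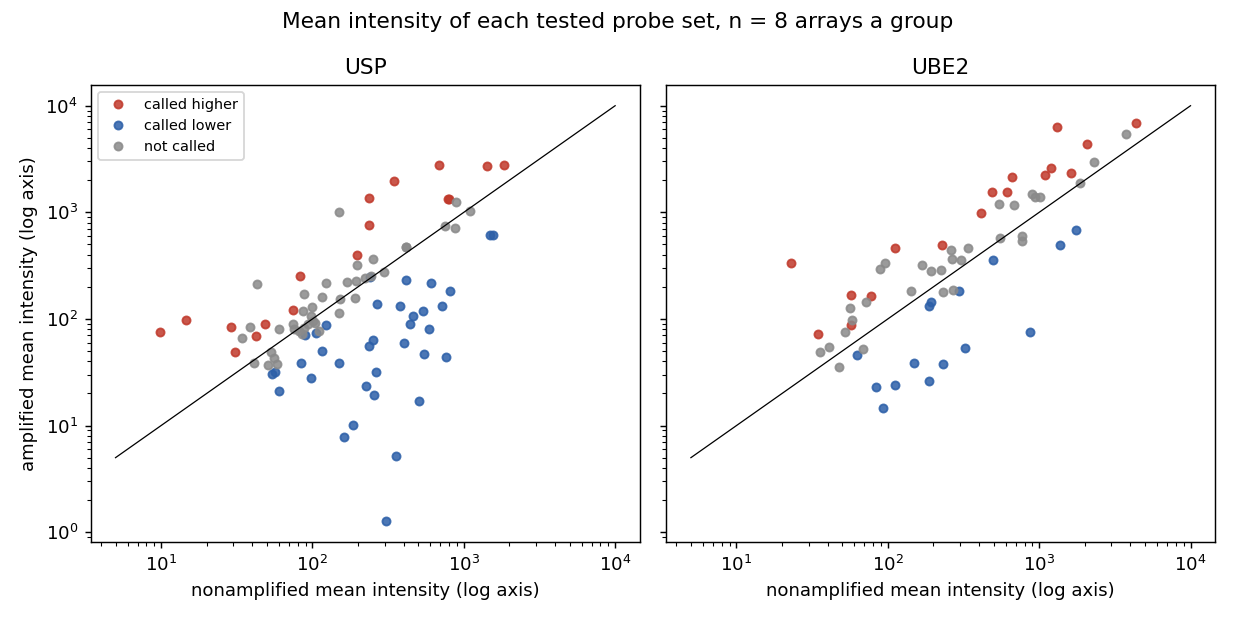
Each point is a tested probe set, with its mean intensity on 8 nonamplified arrays (x, log axis) and on 8 amplified arrays (y, log axis). The line marks equal means. Red points were called higher, blue points lower and grey points were not called; 36 USP and 15 UBE2 points are blue.

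The plot of amplified against nonamplified means shows most USP decreases at probe sets bright without amplification, with a Usp9x probe set at the lowest amplified mean, 1.26. Among USP probe sets with a nonamplified mean of 188.3 or more, the upper of 3 equal parts of the array, 33 of 46 were called, 24 of them lower. In that part of the whole array 5549 of 9008 were called, 2210 of them higher and 3339 lower. Of the UBE2 probe sets in that part, 11 of 38 were called higher and 8 lower. In the middle part 9 of 30 USP probe sets were called lower, against 4179 of 9007 on the whole array. In the dim part 3 of 18 were, against 1499 of 9007.

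Usp9x encodes a large X-linked protease that protects many substrates from degradation, among them the survival protein Mcl1. It has 7 tested probe sets, of which 6 were called lower and none higher. At 1450037_at, nonamplified intensities were 268 at the lowest, 304 at the median and 360 at the highest. On the amplified arrays 7 of 8 listed the lowest value, 1, and the other 3.08. The groups did not overlap, and the difference was -4.21 (SE 0.078).

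The other Usp9x probe sets differed less. Amplified intensities at 1450039_at ran from 33.8 through a median of 42.9 to 80.4, against 497, 526 and 646 on nonamplified arrays, a difference of -3.19. At 1420923_at they ran from 9.56 through 16.8 to 34.8, against 233, 262 and 278, a difference of -2.99. Both sets of arrays were separate at these probe sets. The remaining called probe sets of Usp9x had differences of -2.79, -1.62 and -1.24, and the last of these was not called when centred on the median, scaled on the brighter probe sets or without amplified replicate 6. In contrast, 1450038_s_at ran from 218 through 278 to 350 on amplified and from 272 through 291 to 330 on nonamplified arrays. Its groups overlapped and its difference, -0.13 (95% interval -0.34 to 0.082), was not called. Under the other scalings it was called in both directions: lower after quantile normalization (-0.22) and on the hybridization controls (-0.53), higher with median centring (0.40) and on the brighter probe sets (0.48).

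Usp7, which stabilises the ligase Mdm2 and acts on chromatin regulators, also has 7 tested probe sets, 4 called lower, 1 higher and 2 not called. At 1437118_at the amplified arrays read 26.4 at the lowest, 42.4 at the median and 62.2 at the highest, and the nonamplified arrays 629, 764 and 858. The groups were far apart, with a difference of -3.73 (SE 0.13, limma adjusted p = 3.81e-13). At 1419920_s_at the amplified arrays read from 1934 through 3042 to 3300 and the nonamplified arrays from 1738 through 1815 to 1964. These ranges overlap slightly, and the difference was 0.57 (SE 0.12, limma adjusted p = 0.00065). That difference was -0.25 after quantile normalization and 0.14 on the hybridization controls, not called under either. The probe sets 1454948_at and 1434371_x_at gave nearly the same means, 1567 and 1480 on nonamplified and 616 and 608 on amplified arrays, and may share target sequence.

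**Figure D2:**
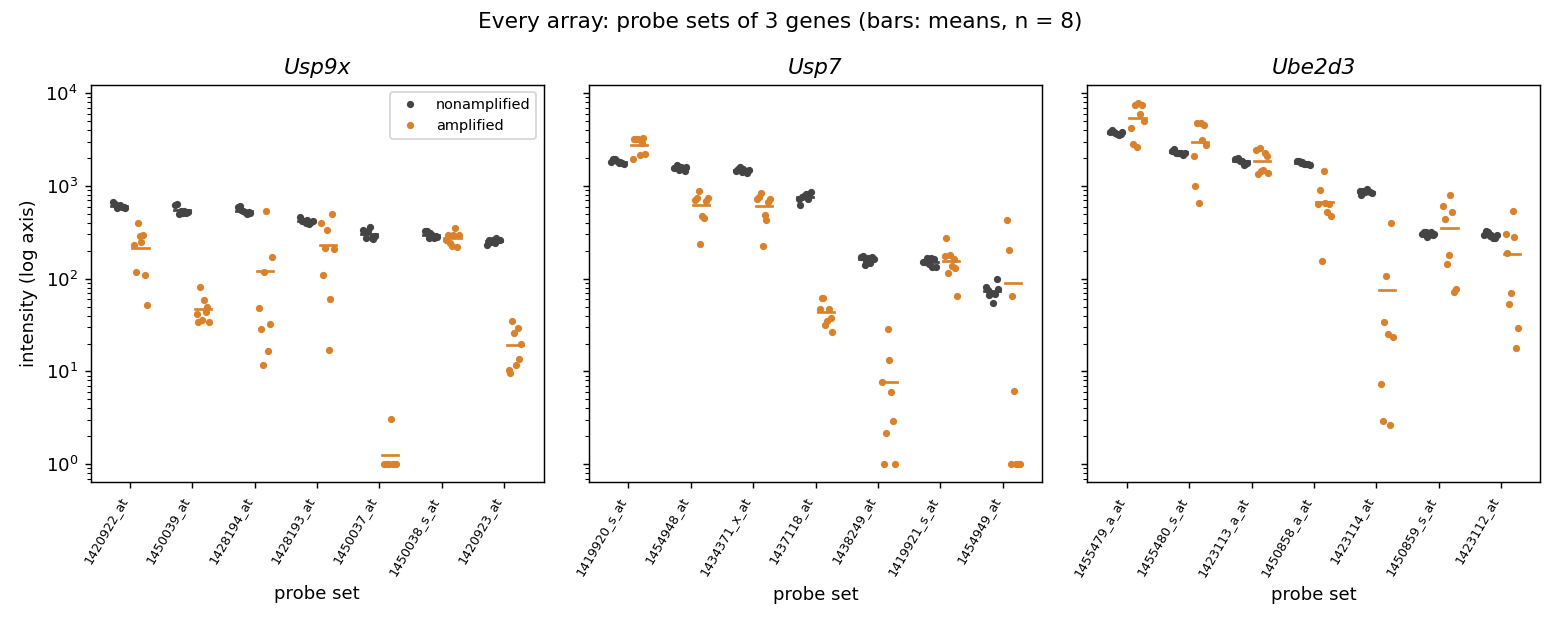
Intensity (y, log axis) of every probe set of Usp9x, Usp7 and Ube2d3 on each of the 8 amplified and 8 nonamplified arrays, with bars at the group means. The nonamplified arrays lie close together at each probe set, while 1450037_at of Usp9x lies at 1 on 7 of 8 amplified arrays.

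The plot of single arrays for Usp9x, Usp7 and Ube2d3 shows that probe sets of one gene moved apart: the same RNA gave large decreases at some of its probe sets and no call, or an increase, at others. This was seen across both families. In the 26 USP genes that have 2 or more tested probe sets, the range of differences within a gene had a median of 1.84 and a maximum of 4.96. Probe sets called in both directions were found for 7 of them (26.9%), against 19.8% of 5640 genes of the whole array. These were Usp1, Usp7, Usp14, Usp15, Usp30, Usp34 and Usp47. For Usp1, Usp15 and Usp34 the calls include a probe set that passed the filter only through the group in which it read higher. By gene, 16 USP genes had only decreases called, 8 only increases, 7 both and 13 neither. The same classes were not counted over all genes of the array, so this split is a description only.

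**Figure D3:**
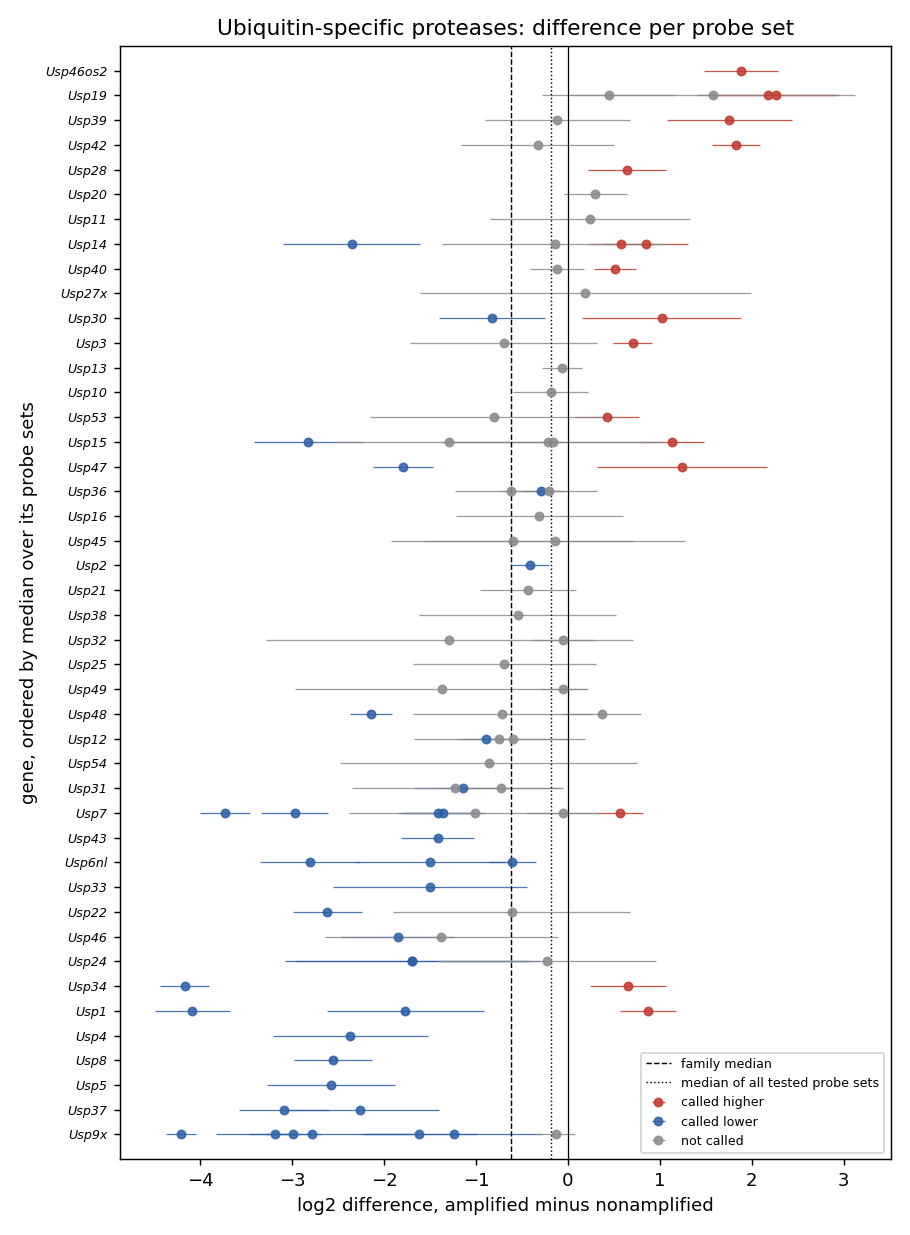
Difference in log2(intensity + 16), amplified minus nonamplified (x), for each tested USP probe set, in rows by gene (y). Points are fitted differences and bars 95% intervals; red was called higher, blue lower, grey not called. The family median, -0.62, lies left of the median of all tested probe sets, -0.19.

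Proteases of DNA repair and the cell cycle had 14 tested probe sets, 3 called higher (21.4%) and 8 lower (57.1%), against 24.7% and 33.4% of all, with a median of -1.60 against -0.19. The decreases include 1423675_at of Usp1 and 1438212_at of Usp37, which passed the filter only through the nonamplified arrays. The role lists were chosen with earlier results of these data known. Their shares with both group means above the filter were not taken, so their counts are a description only. Usp1, which removes ubiquitin from Fancd2 and PCNA in DNA repair, was split, with 2 probe sets called lower and 1 higher. At 1423674_at its difference was -1.77, with separate groups, and it was called lower under every scaling. At 1423675_at its intensities were 2.01, 14.9 and 35.9 (lowest, median, highest) on amplified and 496, 508 and 522 on nonamplified arrays. The groups were separate, and the difference was -4.09 (SE 0.19). At 1451080_at they were 1635, 2666 and 3946 on amplified and 1377, 1440 and 1478 on nonamplified arrays. All 8 amplified arrays lay above the nonamplified ones, a difference of 0.87 (SE 0.15, limma adjusted p = 6.87e-05), which was 0.09 and not called after quantile normalization.

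Usp37, which stabilises cyclin A in human cells, was lower at both tested probe sets, by -3.09 and -2.26. At 1438212_at its mean was 185 on nonamplified and 10.2 on amplified arrays. Usp28, known in human cells for opposing the degradation of Myc, went the other way. Its nonamplified values ran from 734 through 789 to 842 and its amplified values from 519 through 1349 to 1946. A single amplified array lay below the nonamplified range, and the difference was 0.64 (SE 0.20, limma adjusted p = 0.0106). That difference fell to 0.01 after quantile normalization and to 0.22 on the hybridization controls, not called under either. Usp47, which acts in base excision repair, was lower at 1426977_at (251 to 63.7, difference -1.79) and higher at 1426976_at (237 to 754, difference 1.24). The increase was not called when scaled on the hybridization controls (0.83).

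Proteases of histones and chromatin had 23 tested probe sets, 2 called higher (8.70%) and 7 lower (30.4%), with a median of -0.70. The shares over the whole array are 24.7% and 33.4%. Besides Usp7 they include Usp22, the ubiquitin protease of the SAGA coactivator complex. At 1456043_at Usp22 read 10.8, 32.9 and 50.1 on amplified and 242, 266 and 282 on nonamplified arrays. These groups were separate, with a difference of -2.62 (SE 0.18). At its other probe set, 1437151_at, the amplified arrays ran from 19.2 through 881 to 1457 around a nonamplified range of 736 to 790, and the difference, -0.61 (95% interval -1.90 to 0.67), was not called. Usp16, a histone protease of mitosis, and Usp10, which binds the stress granule protein G3bp1, were not called either (-0.31 and -0.19), though Usp10 was called lower after quantile normalization (-0.88) and on the hybridization controls (-0.61). Usp3, another histone protease, was higher at 1441056_at, with means of 48.4 on nonamplified and 90.0 on amplified arrays and separate groups (difference 0.70, SE 0.10, limma adjusted p = 1.43e-05). Its other tested probe set, 1425022_at, differed in the other direction (-0.70) and was called under none of the scalings.

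Proteases that recycle free chains or bind the proteasome had 6 tested probe sets, 2 called higher and 2 lower (33.3% each), against 24.7% and 33.4% of all. Usp5, which takes apart unanchored ubiquitin chains, had a single probe set. Its values were 34.3, 140 and 328 on amplified and 685, 706 and 773 on nonamplified arrays, which were separate (difference -2.58, SE 0.33, limma adjusted p = 3.45e-06). Usp14, which trims chains at the proteasome, was lower at 1416208_at, with means of 806 on nonamplified and 184 on amplified arrays (difference -2.35). It was higher at 1437714_x_at (197 to 394, difference 0.85) and at 1439201_at (74.5 to 122, difference 0.57), neither called when scaled on the hybridization controls, and not called at 1455829_at (-0.15).

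Proteases of membranes, endosomes and signalling had 24 tested probe sets, 4 called higher (16.7%) and 11 lower (45.8%), with a median of -0.76. Over the whole array 24.7% were higher and 33.4% lower. The 6 decreases of Usp9x are among them. Usp19, which is anchored in the endoplasmic reticulum, gave the largest USP increase. At 1438812_x_at it read 207, 234 and 257 on nonamplified and 304, 1455 and 2104 on amplified arrays. The groups were separate, and the difference was 2.27 (SE 0.30, limma adjusted p = 5.01e-06). Its probe set 1455205_a_at differed by 2.18, while 1424656_s_at, which read between 138 and 162 on nonamplified arrays, ran from 17.1 to 3401 on amplified arrays and was not called (1.58), except after quantile normalization (1.57), median centring (2.08) and scaling on the brighter probe sets (2.15). Usp15, a protease of growth factor signalling, was lower at 1454036_a_at (586 to 80.9, difference -2.82) and higher at 1442307_at (29.0 to 84.0, difference 1.13). Usp8, the endosomal sorting protease, was lower at its tested probe set, with means of 400 and 59.3 (difference -2.55).

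A list of Usp39, Usp53, Usp54 and Usp6nl had 8 tested probe sets, 2 called higher (25%) and 3 lower (37.5%), near the 24.7% and 33.4% of the whole array. Usp39 is a splicing factor whose protease domain is inactive in humans. At 1437007_x_at its nonamplified values ran from 656 through 694 to 700 and its amplified values from 608 through 2379 to 5194. One amplified array lay below the nonamplified range, and the difference was 1.75 (SE 0.32, limma adjusted p = 0.000165). Its other probe set was not called (-0.12, 95% interval -0.91 to 0.67). Usp6nl carries the symbol of a protease but is a GTPase-activating protein for Rab proteins. All 3 of its tested probe sets were lower (-2.81, -1.50 and -0.60), the last called under neither quantile normalization, median centring nor scaling on the brighter probe sets.

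Some USP increases were at probe sets that were dim without amplification and passed the filter only through the amplified arrays. Usp42, at 1459934_at, read 4.77, 10.4 and 14.6 on nonamplified and 53.9, 73.3 and 101 on amplified arrays, with no overlap (difference 1.83, SE 0.12). Its other tested probe set had means of 245 and 252 and was not called. Usp46os2, an antisense transcript at the Usp46 locus that the symbol rule takes in, read 1.67, 16.8 and 24.0 on nonamplified and 56.4, 87.1 and 147 on amplified arrays, again with no overlap (difference 1.89, SE 0.19). Usp34, a protease of Wnt signalling, was lower at 1434393_at, with means of 359 on nonamplified and 5.24 on amplified arrays, where 4 of 8 listed 1 (difference -4.17). Its other probe set, 1434392_at, had means of 794 and 1332 (difference 0.65). That difference was 0.02 after quantile normalization and 0.23 on the hybridization controls, not called under either.

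No probe set passed the filter for 7 USP genes: Usp17la, Usp18, Usp26, Usp29, Usp44, Usp50 and Usp9y. Usp18 removes the ubiquitin-like protein ISG15, and Usp9y, Usp26 and Usp29 are among those known from testis. The 34 untested USP probe sets had nonamplified means between 3.79 and 56.9 and amplified means between 1.90 and 50.8. Groups did not overlap for 7 of these, for which no share over the untested probe sets of the array was taken. Among the 94 tested ones they did not overlap for 28 (29.8%), against 34.6% of all tested. Of the 28, 5 were higher (5.32% of those tested) and 23 lower (24.5%), against 15.1% and 19.5% of all tested.

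In the UBE2 family, 4 genes had only decreases called (Ube2d3, Ube2n, Ube2q2 and Ube2w) and 7 only increases (Ube2a, Ube2c, Ube2e1, Ube2j2, Ube2q1, Ube2r2 and Ube2s). Another 8 had both (Ube2b, Ube2d2a, Ube2f, Ube2g1, Ube2g2, Ube2h, Ube2k and Ube2t) and 10 neither. Shares over all genes were not taken for only decreases, only increases and neither. The 8 with both are 44.4% of the 18 UBE2 genes with at least 2 tested probe sets, against 19.8% of genes on the whole array. At least 2-fold differences in both directions were called for 3 UBE2 genes (16.7%), Ube2d2a, Ube2f and Ube2g2, and for 2 USP genes (7.69%), Usp15 and Usp47, against 7.34% of all genes. The range within a gene had a median of 2.13, against 1.38 for all genes. No test was made of these differences in share. The calls counted include probe sets that passed the filter only through the group in which they read higher. Among them are 1455569_at of Ube2f, 1417033_at of Ube2g2, 1439477_at of Ube2b, 1455094_s_at of Ube2g1 and 1442307_at of Usp15. Such probe sets had to differ to be tested, so the shares are a description only. Shares without them were not taken.

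**Figure D4:**
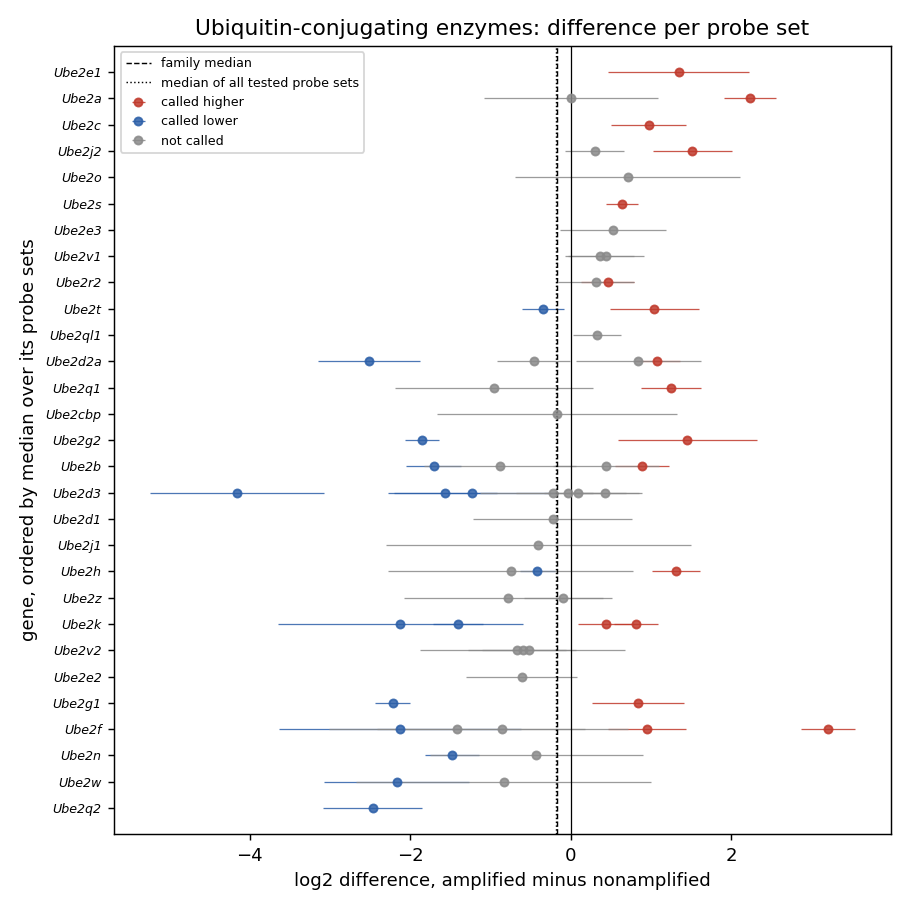
Difference in log2(intensity + 16), amplified minus nonamplified (x), for each tested UBE2 probe set, in rows by gene (y). Points are fitted differences and bars 95% intervals; red was called higher, blue lower, grey not called. Ube2f spans the widest range, 5.33, and the family median, -0.17, lies near the median of all tested probe sets, -0.19.

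Conjugating enzymes of the cell cycle had 6 tested probe sets, 4 called higher (66.7%) and none lower, against 24.7% and 33.4% of all, with a median of 0.55. Ube2c starts and Ube2s extends the chains that the anaphase-promoting complex places on mitotic substrates. Ube2c read 1982, 2056 and 2235 on nonamplified and 1797, 4457 and 7056 on amplified arrays. One amplified array lay below the nonamplified range, and the difference was 0.97 (SE 0.22, limma adjusted p = 0.00114), but 0.12 and not called after quantile normalization and 0.54 and not called when scaled on the hybridization controls. Ube2s read 4045, 4336 and 4615 on nonamplified and 5341, 6812 and 8845 on amplified arrays, which were separate (difference 0.64, SE 0.094, limma adjusted p = 1.76e-05), but -0.12 after quantile normalization and 0.21 on the hybridization controls, not called under either. Ube2e1 and Ube2r2, both in this list, were higher by 1.34 and 0.46, and Ube2e1 was not called after quantile normalization (0.85). Scaled on the hybridization controls, none of the 4 increases of this list was called.

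Enzymes that serve many ligases, a list that shares Ube2d1, Ube2e1 and Ube2r2 with the cell cycle list, had 24 tested probe sets, 6 called higher (25%) and 7 lower (29.2%), with a median of -0.13. Both shares are near those of all probe sets, 24.7% and 33.4%. Ube2d3, a promiscuous conjugating enzyme, has 7 tested probe sets, 3 called lower and 4 not called. At 1423114_at it read 2.63, 24.6 and 398 on amplified and 791, 868 and 925 on nonamplified arrays. The groups were separate, and the difference was -4.16 (SE 0.51, limma adjusted p = 2.44e-06). At 1450858_a_at the difference was -1.56, also without overlap. At 1423112_at it was -1.23 with overlapping groups (limma adjusted p = 0.042), and this call was lost when centred on the median (-0.73), scaled on the brighter probe sets (-0.66) or when any of 12 of the 16 arrays was left out.

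The other Ube2d3 probe sets were not called with the deposited values. At 1423113_a_at the means were 1854 on nonamplified and 1875 on amplified arrays, and the difference was -0.029 (95% interval -0.34 to 0.28). This probe set was called lower after quantile normalization (-0.82) and on the hybridization controls (-0.45), and higher with median centring (0.53) and on the brighter probe sets (0.61). At 1455480_s_at they were 2298 and 2959, and the amplified arrays ran from 654 to 4770 (difference 0.084, 95% interval -0.68 to 0.85). At 1455479_a_at they were 3738 and 5449 (difference 0.43, limma adjusted p = 0.101), called higher with median centring (0.99) and on the brighter probe sets (1.08).

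Ube2d2a, a close relative of Ube2d3, was split. At 1416475_at it read 5.91, 59.1 and 87.8 on amplified and 308, 324 and 346 on nonamplified arrays, with no overlap (difference -2.51, SE 0.30, limma adjusted p = 1.49e-06). At 1416476_a_at it read 1821, 2645 and 3694 on amplified and 994, 1186 and 1314 on nonamplified arrays, again with no overlap (difference 1.08, SE 0.13, limma adjusted p = 2.32e-06), but 0.31 and not called after quantile normalization. Ube2h, whose partners include the CTLH ligase, was higher at 1418632_at (57.5 to 169, difference 1.31). At 1418631_at it was lower by -0.42, but 0.10 and 0.17 and not called when centred on the median or scaled on the brighter probe sets.

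Enzymes of DNA repair and histone ubiquitylation had 10 tested probe sets, 3 called higher and 3 lower (30.0% each), where the array has 24.7% and 33.4%. Ube2a and Ube2b are the mammalian forms of yeast Rad6. At 1448772_at Ube2a read 1244, 1311 and 1362 on nonamplified and 3002, 6697 and 7573 on amplified arrays. All amplified arrays were higher, and the difference was 2.23 (SE 0.15, limma adjusted p = 1.86e-09). At its other tested probe set, 1417609_at, the amplified arrays ran from 12.8 to 606 around the nonamplified range of 169 to 213 (difference 0.006, 95% interval -1.08 to 1.09). Ube2b was higher at 1430177_at (77.0 to 163, difference 0.89) and lower at 1439477_at (111 to 24.1, difference -1.71), both with separate groups. Ube2t, the conjugating enzyme of the Fanconi anaemia pathway, was higher at 1422462_at, with means of 411 and 977 (difference 1.04, SE 0.26, limma adjusted p = 0.00245), though not called when scaled on the hybridization controls (0.62).

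Enzymes of signalling chains, Ube2n with its catalytically inactive partners Ube2v1 and Ube2v2, had 7 tested probe sets, none called higher and 1 lower (14.3%), against 24.7% and 33.4% of all. At 1422559_at Ube2n read 265, 521 and 728 on amplified and 1258, 1344 and 1508 on nonamplified arrays, which were separate (difference -1.48, SE 0.16, limma adjusted p = 4.56e-07). The 2 tested probe sets of Ube2v1 had differences of 0.36 and 0.43 and were not called, but both were called higher with median centring (0.91 and 0.99) and on the brighter probe sets (0.99 and 1.07). The 3 of Ube2v2 had differences from -0.67 to -0.52 and were not called, though 1417983_a_at was called lower after quantile normalization (-1.17) and on the hybridization controls (-1.09).

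Enzymes of protein degradation at the endoplasmic reticulum had 7 tested probe sets, 3 called higher (42.9%) and 2 lower (28.6%), against 24.7% and 33.4% of all. Ube2g2 was lower at 1417033_at, reading 6.30, 15.1 and 20.3 on amplified and 84.8, 93.9 and 109 on nonamplified arrays, with separate groups (difference -1.85, SE 0.10). It was higher at 1417032_at, with means of 112 and 461 (difference 1.45, SE 0.41, limma adjusted p = 0.00599). Ube2g1 was lower at 1455094_s_at (230 to 37.5, difference -2.22) and higher at 1415688_at (1087 to 2222, difference 0.84). The increase was 0.10 after quantile normalization and 0.42 on the hybridization controls, not called under either. Ube2j2 was higher at 1426138_a_at, reading 638, 657 and 728 on nonamplified and 1147, 1951 and 3740 on amplified arrays, without overlap (difference 1.52, SE 0.23, limma adjusted p = 2.79e-05).

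Enzymes of ubiquitin-like proteins and those loaded by the second activating enzyme, Uba6, had 7 tested probe sets, 2 called higher (28.6%) and 1 lower (14.3%), against 24.7% and 33.4% of all. Ube2f transfers the ubiquitin-like protein NEDD8 to a cullin. At 1455569_at it read 6.35, 24.5 and 37.2 on nonamplified and 271, 320 and 432 on amplified arrays. The groups were separate, with a difference of 3.20 (SE 0.16), and it passed the filter only through the amplified arrays. At 3 other probe sets of Ube2f the amplified replicate 8 read 2233, 2350 and 2577, while the other amplified arrays read at most 353 there. The nonamplified means of these were 497, 267 and 263. At 1450275_x_at the difference was -2.13 (limma adjusted p = 0.017). It was not called when centred on the median (-1.65) or scaled on the brighter probe sets (-1.58). The other 2 were not called with all arrays (-1.41 and -0.85) and called lower when replicate 8 was left out. Ube2z, which takes ubiquitin from Uba6, was not called at either tested probe set, though 1423949_at was called lower after quantile normalization (-0.52).

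Among the remaining enzymes, Ube2q1 was higher at 1429311_at, with means of 611 and 1545 (difference 1.25, SE 0.18, limma adjusted p = 1.27e-05). Ube2q2 was lower at its tested probe set, with means of 187 and 26.3 (difference -2.47, SE 0.29). The groups were separate in both cases. The other tested probe set of Ube2q1, 1434508_at, differed in the other direction (-0.96) and was called under none of the scalings. Ube2cbp, whose product binds conjugating enzymes and is not one itself, was not called. The untested UBE2 probe sets numbered 18, and Ube2d-ps, Ube2d2b, Ube2l6 and Ube2u had no tested one. Groups did not overlap for 18 of the 63 tested UBE2 probe sets (28.6%), against the same 34.6%. There were 9 in each direction (14.3%), against 15.1% higher and 19.5% lower of all tested.

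The amplified arrays also differed among themselves. The SD of log2(intensity + 16) over 8 arrays had a median of 0.83 on amplified and 0.11 on nonamplified arrays for USP, 0.80 and 0.087 for UBE2, and 0.54 and 0.13 for all probe sets tested. It was larger on the amplified arrays for 90 of 94 USP and 61 of 63 UBE2 probe sets, and for 90.8% of all. An amplified SD above 1 was seen for 39 USP (41.5%) and 24 UBE2 probe sets (38.1%), against 29.2% of all. These gaps were smaller among bright probe sets. With a nonamplified mean above 108.9, an amplified SD above 1 was seen for 24 of 58 USP (41.4%) and 18 of 45 UBE2 probe sets. The share of all was 37.6% there. With a nonamplified mean of 188.3 or more, the median amplified SD was 0.84 for USP, 0.77 for UBE2 and 0.73 for all. Pearson's r between pairs of amplified arrays averaged 0.67 over the USP and 0.77 over the UBE2 probe sets, against 0.75 over all. Between pairs of nonamplified arrays it averaged 0.99 for USP. These correlations run across probe sets, which are not independent, and describe 28 pairs each.

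**Figure D5:**
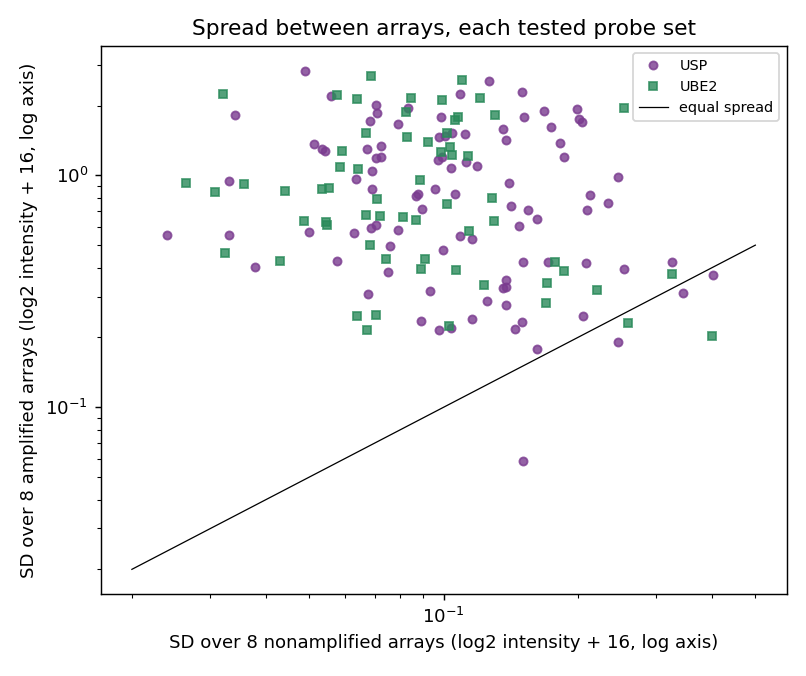
SD of log2(intensity + 16) over the 8 nonamplified arrays (x, log axis) and over the 8 amplified arrays (y, log axis) for each tested USP (circles) and UBE2 (squares) probe set. The line marks equal spread; 90 of 94 circles and 61 of 63 squares lie above it.

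The plot of spread shows probe sets that read near 0.1 on the nonamplified axis and above 1 on the amplified one. At many of these, single arrays switched between bright and dim. Usp32, at 1436159_at, had the largest amplified SD among USP probe sets, 2.82. Its nonamplified values ran from 396 to 441, and on the amplified arrays 3 read 2.10 or less while the others read between 315 and 1363. Usp54 listed 1 on 4 amplified arrays and read from 162 to 564 on the others, around nonamplified values of 95.1 to 137. Ube2cbp listed 1 on 4 amplified arrays and read from 122 to 440 on the others, against 47.2 to 62.9 on nonamplified arrays. None of these 3 was called.

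Such switching, a value below the array's own 25th percentile on at least 1 amplified array and at or above the nonamplified mean on at least 1 other, was found for 26 of 94 USP probe sets (27.7%). It was found for 18 of 63 UBE2 probe sets (28.6%) and for 21.8% of all tested. Among probe sets with a nonamplified mean above 108.9, the median of all tested, it was found for 9 of 58 USP (15.5%) and 10 of 45 UBE2 probe sets (22.2%), against 20.4% of all. The value 1 was listed for 7 to 14 USP probe sets on each amplified array and for 0 to 2 on each nonamplified array. For UBE2 it was 2 to 7 and 0 to 2. Probe sets of one gene mostly peaked on different amplified arrays: among 99 pairs of USP probe sets of the same gene, 15 (15.2%) had their highest amplified value on the same array, against 12.6% of pairs from different genes. For UBE2 it was 17 of 66 pairs (25.8%) against 12.3%, and pairs of overlapping probe sets, as in Ube2f, are counted in these.

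The rest of the pathway was read from lists of genes. For activating enzymes, 9 of 16 probe sets were called lower and 3 higher, with a median of -0.78. Uba6, the second activating enzyme for ubiquitin, read 301 on average without amplification at 1428946_at and 1.27 with it (difference -4.20), and Sae1, of the SUMO activating enzyme, 2562 and 473 at 1416443_a_at. For deubiquitinases of other families, 19 of 50 were lower and 8 higher (median -0.63), and for ligases of the HECT type, 17 of 42 and 3 (median -0.58). Nedd4, a HECT ligase, differed by -5.87 at 1421955_a_at, with means of 3209 and 82.4. For cullins and their partners, 14 of 36 were lower and 7 higher (median -0.25), and for the anaphase-promoting complex and its regulators 12 of 34 and 8 (median -0.044). Cdc20, its activator, was higher at 1439377_x_at, with means of 3096 and 5586, and Cdc26, a subunit, gave 9.28 and 479 at 1456860_at (difference 4.31). The shares of all probe sets stand at 24.7% higher and 33.4% lower.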

How the data were processed

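Gene expression was measured on 16 arrays, 8 a group, and groups were taken from the sample titles. Each array has 1 deposited intensity for a probe set as a linear value. How these were summarised and scaled is not given in the sources at hand. Values were used as deposited and transformed as log2(intensity + 16). Of 45101 probe sets, 64 Affymetrix controls were left out, and those with a mean at or below the 40th percentile (38.52) were not tested, leaving 27022. The group difference was fitted by limma 3.58.1 (lmFit, eBayes) under R 4.3.3, with 2-sided tests and no covariates. The number of arrays limits the precision. The comparison was also run on simulated data. The outcome of that run is not given here, and no statement above rests on it. Symbols came from the platform annotation, and 207 of 209 probe sets matched a gene of the mouse RefSeq table (GRCm38.p6). No coordinates, sequences, slides or scan dates were used here. Python 3.11.15 and matplotlib 3.10.9 made the figures.

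The members, role lists and pathway lists were chosen with earlier results of these data known. Named probe sets were, per family, the 8 largest increases and 8 largest decreases among calls without overlap, the 6 brightest without amplification, the 3 most and 3 least variable bright ones, genes at least 2-fold different in both directions, and preset genes. Of these the text gives a part. Usp8, Usp20, Usp25, Usp27x, Usp36, Usp53 and Ube2z were chosen after their values were seen. So were probe sets outside this rule of Usp3, Usp19, Usp34, Usp37, Usp42, Ube2e1, Ube2g1, Ube2q1, Ube2r2 and Ube2v2. The replicate numbers do not pair arrays: deviations of same-numbered arrays correlated between -0.0083 and 0.020. Alternatives were other pseudocounts, scalings, filters, weights, a trend, a replicate block and leaving out arrays.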

Additional observations from a re-analysis of the deposited data

Results flagged for a closer look

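In 182 groups of 8 arrays, those of the named probe sets, the highest and lowest arrays were examined. The distance of each from its neighbour was taken as a share of the group's range. In 7 groups this share exceeded Dixon's 95% critical value for 8 values. Distance and range were taken on the log2 scale used for the differences, while the intensities below are linear. Chance flags about 1 in 20 groups. Ube2a at 1448772_at read 3002 on amplified replicate 4 and between 6444 and 7573 on the others. Usp19 at 1438812_x_at read 304.4 on amplified replicate 8 and between 939.2 and 2104 on the others. Usp28 read 518.8 on amplified replicate 1 and between 1075 and 1946 on the others. Usp6nl at 1455580_at read 88.95 on amplified replicate 8 and between 3.541 and 24.43 on the others. Usp9x at 1450037_at read 3.082 on amplified replicate 5 and 1 on the others. Among nonamplified arrays, Ube2c read 2235 on replicate 8 against 1982 to 2082, and Ube2d2a at 1416476_a_at read 994.1 on replicate 2 against 1160 to 1314.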

How the results depend on the processing

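The USP median difference, -0.62 as reported, was -0.9987 with a pseudocount of 1, -0.3027 with 64, -0.1879 with each array centred on its median, -0.1210 scaled on the brighter probe sets and -0.9449 scaled on the hybridization controls. USP probe sets called higher numbered 28 on the brighter probe sets, 8 on the hybridization controls and 11 with a 60th percentile filter. UBE2 probe sets called higher numbered 27, 27 and 9 when centred on the median, scaled on the brighter probe sets and on the hybridization controls, and the UBE2 median was 0.3014, 0.3805 and -0.5106. For all probe sets, 10380, 10897 and 3928 were called higher under these, and 5907 and 5574 lower under the first pair. Without a filter 13996 were lower. With a 60th percentile filter 5413 were lower of 10146 called. Among named probe sets, reversed signs, none of them called, were -0.2498 for Usp7 at 1419920_s_at, -0.12 for Ube2s at 1416726_s_at and 0.04572 for Ube2t at 1442398_at after quantile normalization. Median centring and the brighter probe sets gave 0.07374 and 0.1447 for Usp2 at 1417169_at, 0.09635 and 0.172 for Ube2h at 1418631_at, and 0.07954 and 0.1412 for Ube2t. Outside the named ones, Usp36 at 1456094_at, called lower (-0.29), was called higher on the brighter probe sets (0.24). The cause was not tested. Under the other alternatives run, both families' counts of calls stayed within 1.5 times. The UBE2 median, -0.17 as reported, was -0.2719 with a pseudocount of 1 and -0.005644 with 64. With a filter on the nonamplified mean it was -0.3516. With a 60th percentile filter, and without _x_at and _s_at probe sets, it was -0.06122.

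Leaving out each array in turn gave 50 to 57 USP calls (15 to 18 higher, 35 to 39 lower; median -0.6886 to -0.4875) and 31 to 35 UBE2 calls (16 to 20 higher, 14 to 18 lower). The UBE2 median ran from -0.3261 without amplified replicate 5 to -0.04298 without amplified replicate 7, and was between -0.1056 and -0.0857 without amplified replicate 1, 3, 4, 6 or 8. Over all probe sets 14981 to 15923 were called, 6390 to 6772 higher and 8563 to 9185 lower. Leaving out _x_at and _s_at probe sets gave 47 USP and 28 UBE2 calls. A filter on the mean of log2 values, chosen after seeing the data, gave 53 and 32. Groups share replicate numbers only: with the replicate number as a block there were 52 USP calls (16 higher, 36 lower), 30 UBE2 calls (16 higher, 14 lower) and 15028 over all, and 4 of 8 amplified arrays correlated best with their own number. Intensities near the lowest value limit what low readings can show.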
